A study of Mus musculus with 8 samples.

Results

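The genes described here are 10 targets of the transcription factor p53: *Mdm2*, *Ccng1*, *Bax*, *Bbc3*, *Phlda3*, *Eda2r*, *Zmat3*, *Gadd45a*, *Sesn1* and *Trp53inp1*. They were chosen by gene name, each matched 1 of the 54532 genes in the count table, and all 10 passed the filter, which asked for a mean of 10 counts or more over the libraries. RNAseq counts were measured in 8 libraries of GFP+ (mG+) cells that were sorted by FACS from 8-month-old female mice. KO libraries came from mice with the genotype Tie2e-cre; TERTfl/fl; mTmG, in which *Tert*, the catalytic subunit of telomerase, is floxed. WT libraries came from Tie2e-cre; TERT+/+; mTmG mice, so that both genotypes carried the Cre driver and the mTmG reporter, which switches a cell and its descendants from membrane Tomato to membrane GFP. Cre was under the *Tie2e* promoter, so that the sorted population is every cell in which this promoter was or had been active. The libraries form 4 pairs of 1 KO and 1 WT library: subcutaneous adipose tissue (SAT) of mice on a high fat diet (HFD), and SAT, visceral adipose tissue (VAT) and gastrocnemius muscle of mice on chow. Whether a library pooled several mice is not stated.

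The p53 protein, encoded by *Trp53*, is a sequence-specific transcription factor that is stabilised after DNA damage, telomere erosion and other stress. Its targets stop the cell cycle, start apoptosis, restrain growth signalling and, through *Mdm2*, remove p53 itself. The consensus p53 site is made of a pair of short half-sites, and telomere shortening is a classical trigger of the pathway.

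Members that share this regulator were first compared by the bases in front of their start sites. In RefSeq promoter windows on GRCm38.p6, which run from 250 bases before to 50 bases after a start, 8 of the 10 members had an entry, in 11 windows. *Zmat3* and *Trp53inp1* had none. The 10-base p53 half-site was searched on both strands, which its symmetry makes a single search, and it was found in 5 of the 8 members (62.5%), against 9.55% of the 27025 genes in the table and 8.36% of its 32851 windows. The 5 stretches are shown because they are the only half-sites in these windows, with the half-site in capitals and the gene's own strand read 5′ to 3′. The last line gives *Cdkn1a*, the cell cycle inhibitor p21 and the best known p53 target, which is not a member.

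*Mdm2* (chr10:117710910-117710969, minus strand): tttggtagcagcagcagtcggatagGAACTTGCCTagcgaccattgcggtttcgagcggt
*Ccng1* (chr11:40755437-40755496, minus strand): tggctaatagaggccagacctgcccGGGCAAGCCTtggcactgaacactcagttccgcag
*Bax* (chr7:45467065-45467124, minus strand): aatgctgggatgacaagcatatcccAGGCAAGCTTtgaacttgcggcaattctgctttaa
*Gadd45a* (chr6:67037413-67037472, minus strand): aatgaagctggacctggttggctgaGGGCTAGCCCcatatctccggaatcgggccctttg
*Sesn1* (chr10:41887241-41887300, plus strand): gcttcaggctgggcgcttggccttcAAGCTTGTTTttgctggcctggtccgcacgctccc
*Cdkn1a* (chr17:29090881-29090962, plus strand): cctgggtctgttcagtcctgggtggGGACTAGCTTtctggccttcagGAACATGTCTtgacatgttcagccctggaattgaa

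Counted from the RefSeq start of its window, the half-site began 40 bases before in *Gadd45a*, 173 in *Sesn1*, 185 in *Ccng1*, 186 in *Mdm2* and 201 in *Bax*. In the count table the *Gadd45a* gene model reaches to 67037457 on the minus strand, so its half-site lies inside that model. The *Sesn1* half-site is at an internal start, within the gene span of 41809935 to 41908424. *Sesn1* had it in 1 of 2 windows, and no half-site was found in the windows of *Bbc3* (3 windows), *Phlda3* and *Eda2r*. The ends of the *Bbc3* and *Phlda3* windows were not found near an annotated transcript start of the gene, while that of the *Eda2r* window was. No member window held 2 half-sites within 13 bases of each other. The first *Cdkn1a* window did, as did 0.0731% of all windows. A match is a description of letters, not of binding, and p53 sites are also known in introns, which were not searched.

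Library totals ran from 6214269 counts (SAT HFD WT) to 18855772 (SAT chow WT). Genes detected were fewest in SAT HFD, at 16076 in WT and 16034 in KO, against 19802 to 24688 in the chow libraries. In SAT HFD, *Tert* had 114 counts in the WT and 0 in the KO library (at least 72.2-fold lower against a floor of 3 counts, with a counting interval that ended at a log2 ratio of -5.85), with 70 and 11 in SAT chow and 24 and 7 in muscle. In VAT the library labelled WT had 3 *Tert* counts and the library labelled KO had 9, opposite to the label and within counting error, so the VAT direction rests on labels that *Tert* does not show. All 13 endothelial markers were detected in every library, with a summed level of 362 to 731 CPM (counts scaled to a library size of 1000000 after TMM scaling) in SAT, 1920 to 2500 in VAT and 2290 to 2680 in muscle. *Ptprc*, the pan-leukocyte gene, was at 1240 to 2480 CPM in the 8 libraries, while *Pecam1* was at 151 to 544 CPM. Neutrophil markers (11 genes) summed to 27400 and 31200 CPM in muscle and to 79.5 to 1020 CPM elsewhere, with 2 of the 11 at 0 in each SAT HFD library. Macrophage markers (9 genes) summed to 9650 and 9510 CPM in VAT and to 217 to 897 CPM elsewhere. SAT chow WT stood apart with *Malat1*, a nuclear RNA, at 292 CPM against 2150 to 5840 CPM in the other libraries. SAT HFD WT had 9.72% of its counts on the single gene *Gm26917*, against 0.195% to 1.07% elsewhere.

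**Figure D1:**
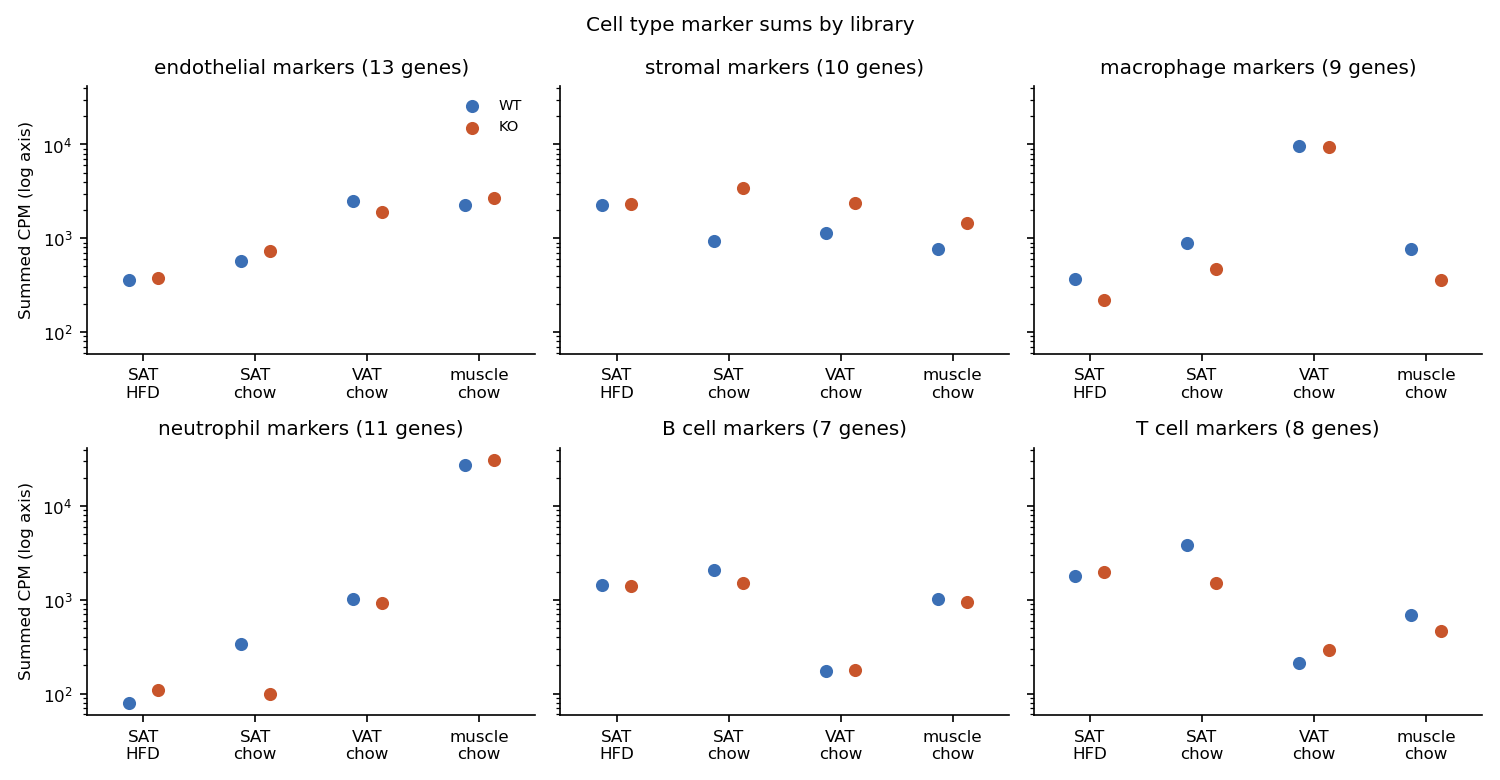
Summed CPM (log axis) of 6 cell type marker lists in each library, with WT in blue and KO in orange, 1 point per library. Neutrophil markers stand highest in both muscle libraries (27400 and 31200 CPM), macrophage markers in both VAT libraries (9650 and 9510 CPM).

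In bulk samples, fewer cells of a type and less RNA per cell cannot be told apart, and this holds for every level below. Per kilobase of gene model, the median level over the 8 libraries was highest for *Bax* (30.2 CPM per kb), followed by *Ccng1* (24.8), *Trp53inp1* (23.0), *Mdm2* (22.6), *Sesn1* (16.7), *Gadd45a* (13.8) and *Bbc3* (11.4). *Phlda3* (2.64), *Zmat3* (1.51) and *Eda2r* (0.296 CPM per kb) were the lowest. By range over libraries, *Bax* (16.6 to 40.6) and the next 3 members overlapped each other. *Sesn1* (14.1 to 36.1), *Gadd45a* (9.16 to 57.3) and *Bbc3* (8.74 to 17.6) also overlapped *Bax*, and *Phlda3* and *Zmat3* overlapped each other. *Eda2r*, at 0 to 0.646 CPM per kb, lay below every *Zmat3* value (0.729 to 1.68). On the same scale *Cdkn1a* had a median of 44.7 and *Trp53* of 26.9 CPM per kb.

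Of the feedback and cell cycle members, *Mdm2* encodes the ubiquitin ligase that marks p53 for degradation (ENSMUSG00000020184, chromosome 10, 117688875 to 117710758, GRCm38). Its level was 79.5 CPM in WT and 107 CPM in KO for SAT HFD, 98.6 and 123 for SAT chow, 204 and 170 in VAT, and 129 and 96.2 in muscle. Both VAT libraries lay above the other 6. The log2 difference between VAT and SAT on chow was 0.76 (SE 0.324, adjusted p = 0.242, edgeR quasi-likelihood test, 2 libraries per tissue), and it was 1.05 between the WT and 0.47 between the KO libraries. *Ccng1*, cyclin G1, recruits a phosphatase that regulates Mdm2 (chromosome 11, 40748552 to 40755311). Its level was 83.4 and 93.8 CPM (WT and KO) for SAT HFD, 158 and 85.9 for SAT chow, 93.8 and 80.8 in VAT, and 88.3 and 66.1 in muscle. SAT chow WT was the single high library, and the other 7 lay between 66.1 and 93.8 CPM.

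*Gadd45a*, a stress sensor that acts in cell cycle arrest and DNA repair (ENSMUSG00000036390, chromosome 6, 67035096 to 67037457), was the single member called in a comparison of tissues. Its level was 24.2 and 20 CPM (WT and KO) for SAT HFD, 33.8 and 16.2 for SAT chow, 20.5 and 24.4 in VAT, and 101 and 99.4 in muscle. Both muscle libraries lay above every fat library, without overlap, while the fat groups overlapped. In muscle over VAT, the log2 difference was 2.15 (SE 0.398, 4.42-fold, adjusted p = 0.042, edgeR), at 2.30 between the WT and 2.03 between the KO libraries. In muscle over SAT on chow it was 2.05 (SE 0.398, adjusted p = 0.0578), at 1.58 and 2.62. The VAT call was lost when SAT HFD KO, either VAT or either muscle library was left out (lowest value 1.83 and highest 2.54 on the log2 scale, adjusted p = 0.0567 to 0.449). The SAT difference passed the threshold under 6 of the other settings, such as DESeq2 size factors (adjusted p = 0.0455), and without either SAT chow library. The neutrophil marker sum was high in the same 2 libraries, at 27400 and 31200 CPM in muscle against 339 and 99.3 CPM in SAT chow and 1020 and 916 CPM in VAT, and its part in the *Gadd45a* level was not tested. E230016M11Rik on the opposite strand shares 19.1% of the *Gadd45a* exon bases, and reads of both genes cannot be told apart if strand was not used.

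The apoptosis members are *Bax*, which permeabilises the mitochondrial outer membrane (ENSMUSG00000003873, chromosome 7, 45461697 to 45466898), and *Bbc3*, which encodes the BH3-only protein Puma (chromosome 7, 16308393 to 16318205). *Bax* was at 64.0 CPM in WT and 26.2 CPM in KO for SAT HFD, 62.9 and 45.2 for SAT chow, 46.4 and 49.2 in VAT, and 48.7 and 33.6 in muscle. *Bbc3* was at 35.7 and 22.1 CPM for SAT HFD, 18.6 and 25.4 for SAT chow, 23.0 and 22.5 in VAT, and 37.4 and 35.1 in muscle. The *Bax* groups overlapped in all tissues, with the lowest library in SAT HFD KO. *Bbc3* was highest in SAT HFD WT and in the muscle libraries. Gm45808 shares 12.2% of the *Bax* exon bases.

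*Phlda3*, whose product inhibits AKT at the membrane (ENSMUSG00000041801, chromosome 1, 135766119 to 135769136), and *Eda2r*, a receptor for ectodysplasin A2 (ENSMUSG00000034457, chromosome X, 97333840 to 97377216), were both near the lower end of detection. *Phlda3* had 9 and 56 counts (WT and KO) for SAT HFD (1.35 and 4.43 CPM), 38 and 70 for SAT chow (2.30 and 4.22 CPM), 35 and 78 for VAT (3.92 and 5.75 CPM), and 66 and 133 for muscle (4 and 9.64 CPM). The KO library was the higher of the pair in all 4 pairs. *Eda2r* had 0 and 9 counts for SAT HFD, 3 and 41 for SAT chow, 34 and 47 in VAT, and 56 and 14 in muscle. In the WT libraries the fat depots were apart, with 0 and 3 counts in SAT and 34 in VAT, but the fitted VAT over SAT difference on chow was not called (adjusted p = 0.621, edgeR). The 3-count floor corresponds to 0.181 to 0.451 CPM.

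*Zmat3* encodes an RNA-binding zinc finger protein that acts in p53-dependent splicing and growth control (chromosome 3, 32334792 to 32366014). Its level was 19.3 and 17.3 CPM (WT and KO) for SAT HFD, 17.2 and 19.0 for SAT chow, 11.3 and 18.4 in VAT, and 12.1 and 8.33 in muscle. *Sesn1*, a leucine sensor that restrains mTORC1 (chromosome 10, 41809935 to 41908424), was at 78.3 and 144 CPM for SAT HFD, 65.2 and 99.3 for SAT chow, 67.9 and 56.0 in VAT, and 57.3 and 59.0 in muscle. Both SAT KO libraries lay above the other 6 for *Sesn1*, and the same held for *Trp53inp1*, a stress-induced promoter of autophagy and of p53 activity (ENSMUSG00000028211, chromosome 4, 11156431 to 11174379). *Trp53inp1* was at 176 and 286 CPM for SAT HFD, 123 and 338 for SAT chow, 117 and 123 in VAT, and 154 and 144 in muscle.

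**Figure D2:**
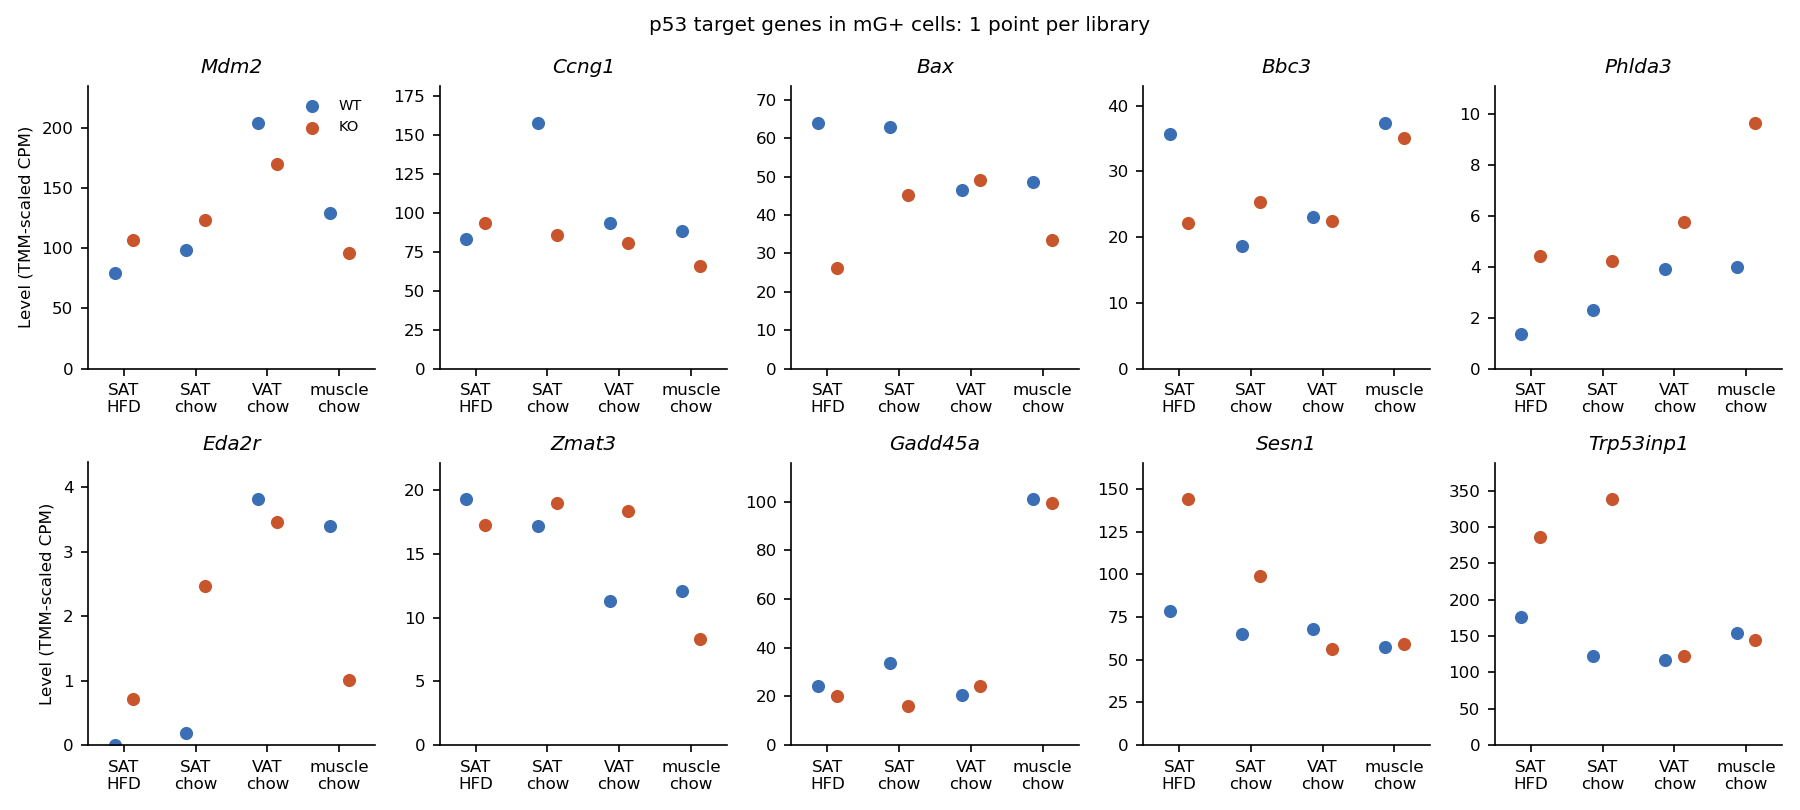
Level (TMM-scaled CPM, linear axis from 0) of each member in the 8 libraries, with WT in blue and KO in orange and 1 point per library. *Gadd45a* is at 101 and 99.4 CPM in muscle and at most 33.8 CPM in fat; *Sesn1* and *Trp53inp1* are highest in both SAT KO libraries.

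The question of the KO and WT comparison is whether these genes differ when *Tert* is inactivated. With 1 library per genotype in a pair, no test is possible within it. The log2 ratio of KO to WT is given with a 95% counting interval (exact, Clopper-Pearson), which covers counting error only, and a gene was called where that interval lay beyond 2-fold. In SAT HFD, *Bax* was called lower, 2.44-fold, at -1.29 (-1.50 to -1.08), 1 of the 9 members that passed the same filter in that pair. The background was 11.1% of 15839 genes lower and 12.7% higher. In the same pair the intervals of *Phlda3* (1.67, 0.68 to 2.91), *Sesn1* (0.88, 0.73 to 1.02), *Trp53inp1* (0.70, 0.60 to 0.80), *Mdm2* (0.43, 0.29 to 0.58) and *Ccng1* (0.17, 0.02 to 0.32) lay above 0, while that of *Bbc3* lay below (-0.69, -0.95 to -0.44). *Eda2r*, with 0 and 9 counts, did not pass the filter. Against a floor of 3 counts it was at least 1.58-fold higher in KO, and its counting interval began at 0.05.

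In SAT on chow, *Eda2r* was called higher, at 3.56 (2.12 to 6.10) from 3 and 41 counts, and *Trp53inp1* was called higher, 2.75-fold, at 1.46 (1.38 to 1.53). The background was 19.0% of 16908 genes higher and 11.7% lower. *Gadd45a* (-1.06, -1.28 to -0.85), *Ccng1* (-0.88, -0.98 to -0.79) and *Bax* (-0.48, -0.61 to -0.34) were lower, and *Phlda3* (0.87, 0.29 to 1.49), *Sesn1* (0.61, 0.49 to 0.72), *Bbc3* (0.45, 0.24 to 0.67) and *Mdm2* (0.32, 0.22 to 0.41) were higher. These intervals do not cover the choice of scaling. With library totals in place of TMM, *Mdm2* was at 0.55 and *Bax* at -0.24, both outside their intervals. This pair also differed by gene length, with a median log2 ratio of -0.51 over genes under 2 kb, -0.25 over those of 2 to 5 kb and 0.42 over those above 5 kb. With that trend removed, *Bax* moved to 0.08 and *Zmat3* from 0.14 to -0.51, while *Bbc3* moved up to 1.01, *Phlda3* to 1.43 and *Gadd45a* to -0.67. The calls of *Eda2r* (3.52) and *Trp53inp1* (1.35) held. Stromal markers summed to 927 CPM in the WT and 3460 CPM in the KO library, and T cell markers to 3790 and 1520 CPM. A list of 13 dissociation stress genes summed to 7010 and 11500 CPM, with 11300 to 17500 CPM in all libraries but SAT chow WT. Proliferation markers (13 genes) summed to 959 and 512 CPM. The part of these SAT chow differences in the members' ratios was not tested.

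In VAT no member was called, where 2.40% of 16439 genes were called higher and 2.09% lower. *Zmat3* was higher in the library labelled KO (0.70, 0.36 to 1.05), and *Mdm2* (-0.26, -0.35 to -0.17), *Sesn1* (-0.28, -0.43 to -0.12) and *Ccng1* (-0.22, -0.35 to -0.08) were lower. The intervals of the other 6 members spanned 0. In muscle no member was called either, against 2.75% of 16967 genes higher and 2.05% lower. *Phlda3* was higher (1.26, 0.83 to 1.72), and *Eda2r* (-1.71, -2.70 to -0.88), *Bax* (-0.53, -0.70 to -0.37), *Zmat3* (-0.53, -0.88 to -0.20), *Mdm2* (-0.42, -0.52 to -0.32), *Ccng1* (-0.42, -0.54 to -0.30) and *Trp53inp1* (-0.10, -0.19 to -0.02) were lower. Stromal markers summed to 1150 and 2380 CPM (WT and KO) in VAT, 766 and 1440 in muscle, and 2280 and 2320 in SAT HFD. Mural (pericyte and smooth muscle) markers summed to 184 and 751 CPM in VAT and 178 and 374 in muscle. The part of these differences in the members' ratios was not tested.

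**Figure D3:**
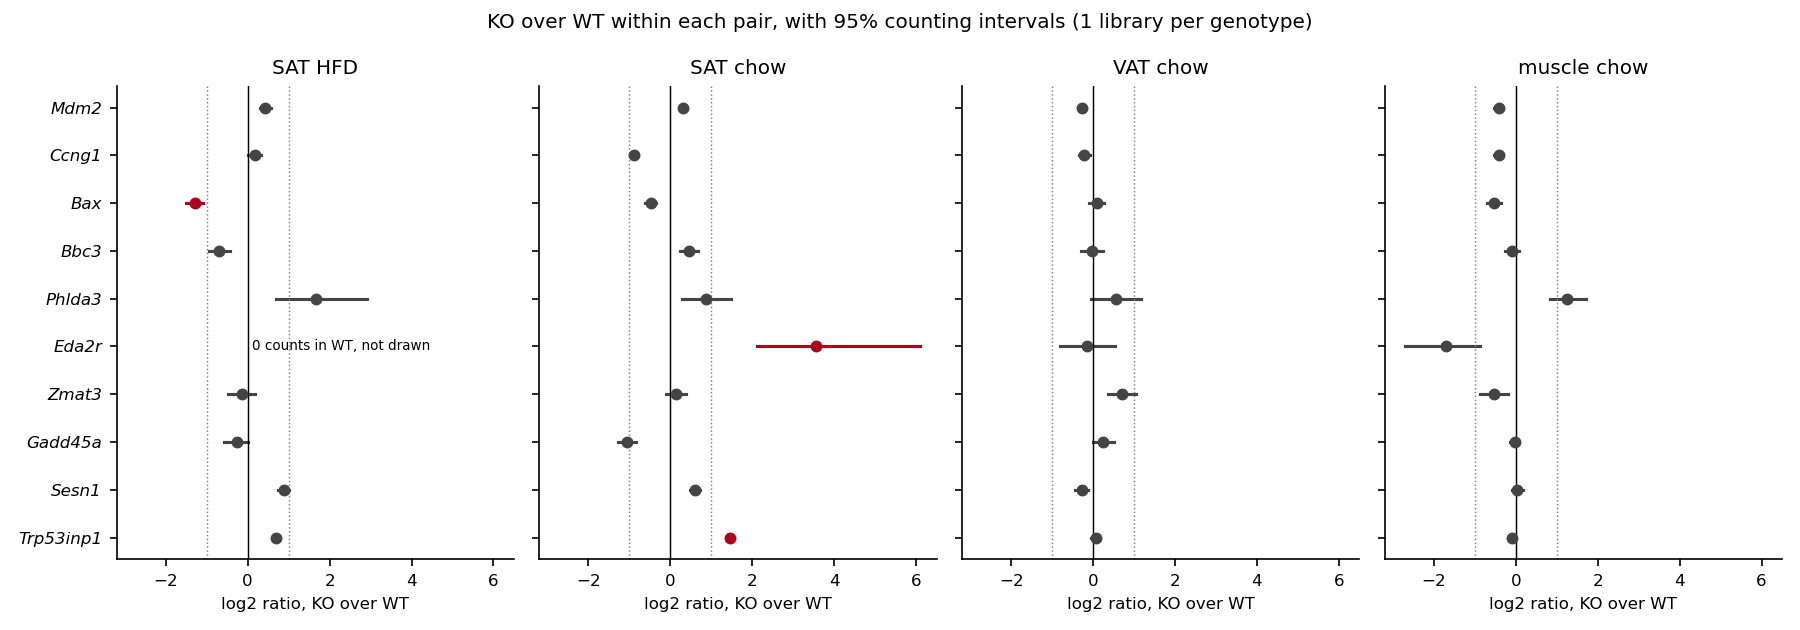
Log2 ratio of KO to WT (points) with 95% counting intervals (bars) for each member in each pair, with 2-fold marked by dotted lines and calls in red. The 3 calls are *Bax* in SAT HFD and *Eda2r* and *Trp53inp1* in SAT chow; *Phlda3* lies above 0 in each panel, with an interval that spans 0 in VAT.

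Over the members, the interval lay above 0 for 5 and below 0 for 2 of 9 in SAT HFD, for 6 and 3 of 10 in SAT chow, for 1 and 3 in VAT, and for 1 and 6 in muscle. Among all genes, 38.3% and 34.3% lay above and below in SAT HFD, 40.9% and 40.3% in SAT chow, 26.6% and 24.7% in VAT, and 26.7% and 29.4% in muscle. The median log2 ratio of the members was 0.17, 0.38, 0.02 and -0.26 in these pairs, beside 0.04, 0, 0.01 and -0.01 over all genes. The summed level of the 10 members was 562 and 722 CPM (WT and KO) for SAT HFD, 580 and 758 for SAT chow, 591 and 553 in VAT, and 636 and 552 in muscle.

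Across the 4 pairs, with tissue and diet as a block and 3 residual degrees of freedom, no member passed the threshold (adjusted p under 0.05, edgeR quasi-likelihood test, Benjamini-Hochberg). Of 16971 genes, 0.00589% were called higher and 0% lower, and 279 had an unadjusted p under 0.05, none of them a member. The members with the lowest p were *Bax* at -0.55 (SE 0.271, lower in KO in 3 of 4 pairs), *Trp53inp1* at 0.53 (SE 0.298, higher in 3 of 4) and *Phlda3* at 1.09 (SE 0.633, higher in 4 of 4), each with adjusted p = 1. *Bax* was at -0.31 without SAT HFD WT, and *Trp53inp1* at 0.23 without both SAT chow libraries. DESeq2's Wald test called 19 genes and no member.

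For diet, the HFD and chow libraries of SAT were compared. No member was called, and 0% of the 16971 genes were called in either direction (0 genes by edgeR, with 1354 at an unadjusted p under 0.05, and 260 genes by DESeq2's Wald test, no member among them). The KO and WT libraries went opposite ways for *Bbc3*, at 0.94 between the WT and -0.20 between the KO libraries, and for *Ccng1*, at -0.93 and 0.13, among others. No unadjusted p of a member was under 0.05.

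For tissue, VAT over SAT on chow had 3.31% of 16971 genes called higher and 1.74% lower, and no member. *Mdm2* (0.76, above) and *Trp53inp1*, at -0.83 (SE 0.420, adjusted p = 0.324, edgeR), had the lowest p. The *Trp53inp1* value was -0.07 between the WT and -1.46 between the KO libraries, and it was -0.14 without SAT chow KO and -1.33 without SAT chow WT. Muscle over SAT on chow had 1.11% called higher and 0.147% lower, and no member by edgeR. *Ccng1*, at -0.64 (SE 0.327), *Bbc3*, at 0.71 (SE 0.389), and *Zmat3*, at -0.82 (SE 0.483), followed *Gadd45a*, with adjusted p = 0.54, 0.574 and 0.607. Muscle over VAT had 0.884% called higher and 1.05% lower, and *Gadd45a* was 1 of 10 members called. *Mdm2* (-0.73, SE 0.323, adjusted p = 0.41) and *Bbc3* (0.67, SE 0.389, adjusted p = 0.592) did not pass. These tissue comparisons share libraries, so they are not independent of each other. The WT and KO library of a tissue were the only replication, so the p-values measure the spread between them after a common genotype term.

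**Figure D4:**
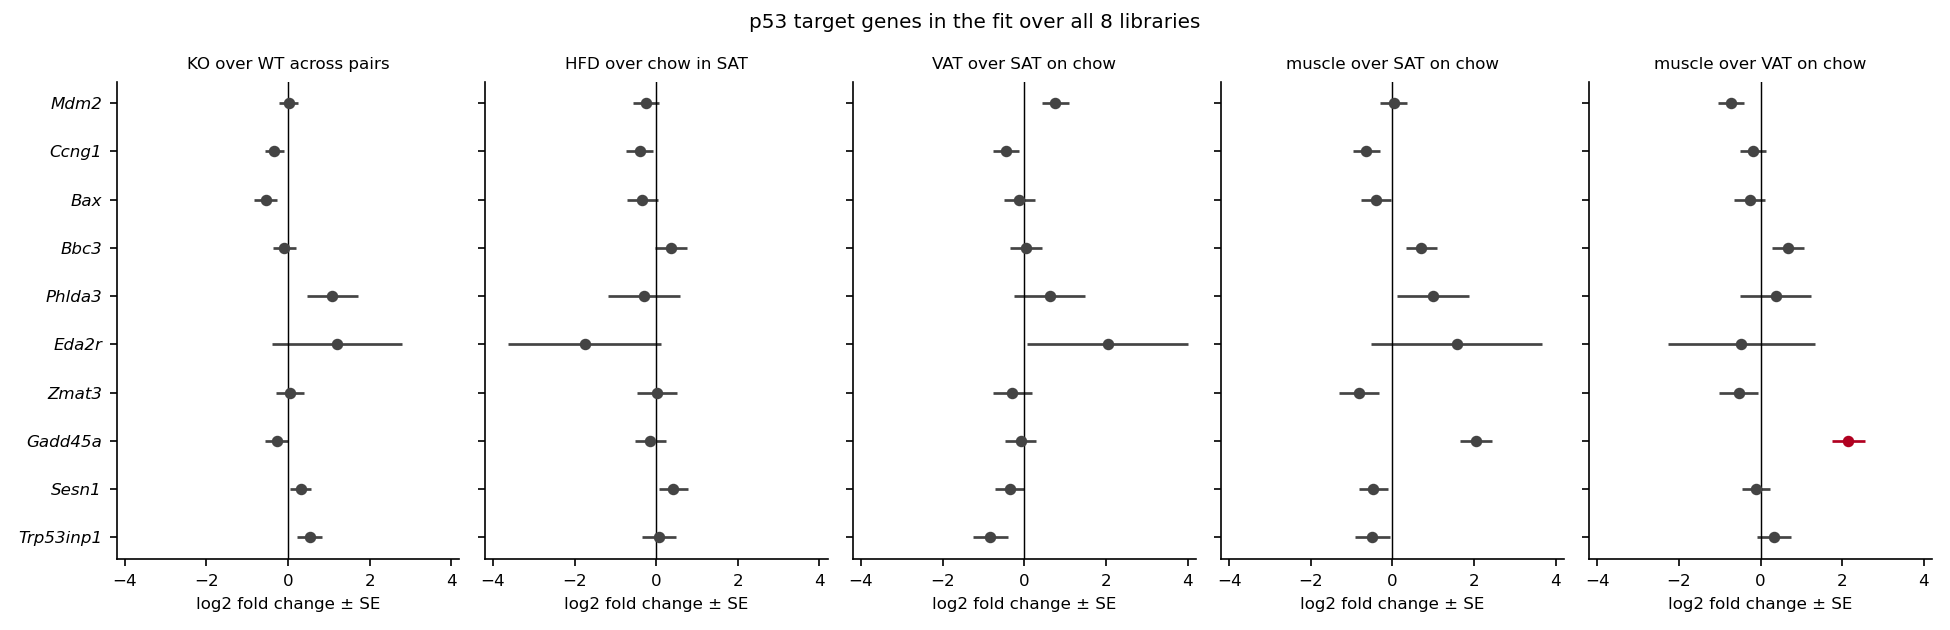
Log2 fold change ± SE of each member in the 5 comparisons of the fit over all 8 libraries, with the called value in red. *Gadd45a* is at 2.05 in muscle over SAT and at 2.15 in muscle over VAT, and only the second passed the threshold.

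Over the 8 libraries, *Mdm2* and *Eda2r* had the highest correlation (Spearman's rho 0.929, Pearson's r 0.872), followed by *Sesn1* and *Trp53inp1* (0.643 and 0.844). The lower ranks of *Eda2r* rest on few counts, at 0 and 9 in SAT HFD, 3 in SAT chow WT and 14 in muscle KO. *Gadd45a* and *Sesn1* had the lowest rho (-0.81, r -0.587), and *Zmat3* and *Gadd45a* the lowest r (-0.726, rho -0.524). These are descriptions over 8 libraries that differ in tissue, diet, genotype and depth, with no p.

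Other genes of the pathway were taken from 3 lists: 30 other p53 targets, 19 regulators of p53 and 24 relatives of the members. *Cdkn1a* was at 118 and 63.1 CPM (WT and KO) for SAT HFD, 34.1 and 139 for SAT chow, 393 and 440 in VAT, and 273 and 179 in muscle. The KO over WT ratio was called higher in SAT chow alone among the 4 pairs, at 2.02 (1.89 to 2.16, 4.06-fold), and was below 0 in SAT HFD (-0.90, -1.04 to -0.76) and in muscle (-0.61, -0.68 to -0.53). VAT over SAT on chow was 2.30 for *Cdkn1a* (SE 0.662, adjusted p = 0.0974, edgeR), which passed with no count filter and by DESeq2's Wald test (2.40). It was 3.87 without SAT chow KO, where it passed, and 1.45 without SAT chow WT, where it did not. *Trp53* itself was at 88.0 and 105 CPM for SAT HFD, 217 and 149 for SAT chow, 101 and 106 in VAT, and 155 and 112 in muscle, with SAT chow WT the highest, and no comparison of it passed except VAT over SAT without SAT chow KO (-1.04).

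Across the pairs none of the 29 other targets, 17 regulators or 22 relatives tested was called for genotype. For VAT over SAT on chow, 3 of the 29 other targets were called: *Apaf1*, the apoptosome scaffold, rose by 1.56 on the log2 scale (SE 0.315, adjusted p = 0.0324), while the DNA damage binding gene *Ddb2* (-1.96, SE 0.403, adjusted p = 0.0346) and the 14-3-3 gene *Sfn* (-1.75, SE 0.403, adjusted p = 0.05) fell. The same libraries differed in macrophage markers (9650 and 9510 CPM in VAT, 897 and 469 in SAT chow), T cell markers (209 and 289 against 3790 and 1520) and B cell markers (174 and 177 against 2060 and 1500), whose part in these values was not tested. Leaving out either VAT or either muscle library lost all 3 calls, and that of *Sfn* was also lost with DESeq2 size factors, with library totals and without either SAT HFD library or SAT chow KO. No regulator or relative was called there, and none of the 3 lists had a called gene in the other 3 tissue and diet comparisons.

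Within pairs, 6 of 29 other targets, 5 of 16 regulators and 8 of 22 relatives were called higher in SAT chow and 3, 2 and 2 lower, in a pair where 19.0% of all genes were called higher and 11.7% lower. Higher there were the death receptor gene *Tnfrsf10b* (2.18, 1.94 to 2.43), the acetyltransferase gene *Crebbp* (2.23, 2.13 to 2.33), the p53 inhibitor *Mdm4* (1.70, 1.63 to 1.77) and the BH3-only gene *Bcl2l11* (2.15, 2.04 to 2.26). Lower were the ribosomal protein genes *Rpl5* (-1.46, -1.48 to -1.44) and *Rpl11* (-1.56, -1.60 to -1.52), whose products bind Mdm2, and the mitotic gene *Gtse1* (-2.41, -3.10 to -1.82). With the length trend of this pair removed, *Mdm4* moved to 0.50, short of 2-fold, and *Crebbp* to 1.37, *Bcl2l11* to 1.77 and *Rpl11* to -1.14. *Gdf15*, a stress-induced cytokine, went from 43 to 181 counts in SAT chow but from 202 to 62 in SAT HFD and from 527 to 94 in muscle. Its level was highest in VAT, with 1245 counts in the library labelled WT and 2868 in that labelled KO (139 and 211 CPM). In SAT HFD, 2 of 28 other targets, 2 of 18 regulators and 1 of 19 relatives were higher and 2, 1 and 1 lower, beside 12.7% and 11.1% of all genes. Higher from 0 counts in WT were *Pidd1* (74 counts in KO), the p53 regulator *Cdkn2a* (41), *Perp* (40) and *Trp63* (24). Lower, beside *Gdf15*, were *Dram1* (20 counts in WT and 0 in KO), *Ppp1r13l* (68 and 16, log2 ratio -2.96) and *Bid* (142 and 98, -1.46). In the chow libraries *Pidd1* had 39 to 138 counts and *Dram1* had 141 to 912. Fewer genes were detected in both SAT HFD libraries, and the part of this in the counts of 0 in SAT HFD was not tested. The pore-forming gene *Bak1*, a relative of *Bax*, had 99 counts in WT and 649 in KO there (1.78, 1.48 to 2.11) and 844 and 370 in SAT chow (-1.19, -1.37 to -1.02, and -0.69 with the length trend removed), so that the 2 pairs went opposite ways. In VAT and muscle 1 gene each was called over the 3 lists, *Perp* (2 and 28 counts, 2.97, 1.22 to 6.32) and *Gdf15* (-2.22, -2.56 to -1.91).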

How the data were processed

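The values analysed are the raw gene counts that the authors deposited in a single table: whole numbers per Ensembl gene, not normalized. The submitters' processing notes name HISAT2 2.0.5 and GRCm38; the counting program, annotation release and strand use are not given in the sources used here. RNA was isolated on columns according to the labels and with Trizol according to the methods, and libraries were made with a SMARTER kit. The 10 members and the gene lists were chosen with earlier results of these data known. Libraries were scaled in edgeR 4.0.16 (R 4.3.3) by TMM factors from genes averaging 10 counts or more. Factors from all genes were run first, and are given as an alternative. Within a pair, KO over WT used a prior count of 0.5, genes averaging 10 counts or more over its 2 libraries, and a bound against 3 counts. Across pairs, glmQLFit with robust dispersions fitted genotype and tissue with diet over 16971 genes, with Benjamini-Hochberg adjustment at 0.05. Each SE was derived from the test, as the absolute log2 fold change divided by the square root of the F statistic. Samples were mapped by tissue, diet and genotype, which also define the pairs; the labels number no replicates. Fitted values are given for members with an unadjusted p under 0.15, a limit chosen after the values were seen. Members, *Cdkn1a*, *Trp53* and *Tert* were always named. Other pathway genes came from the called genes of largest change, up to 3 in each direction per list, and in SAT chow only some of these are named. The procedures were tested on simulated data. Alternatives were other scalings, filters, prior counts and call folds, DESeq2 1.42.0, designs without a term, and leaving out libraries.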

Additional observations from a re-analysis of the deposited data

Results flagged for a closer look

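For 7 of the 10 members, the KO over WT ratio had a counting interval above 0 in one pair and below 0 in another, as had 57.0% of the 17192 genes that passed the filter in at least 2 pairs. The difference between pairs was not tested, since each pair has 1 library per genotype. On the log2 scale, the highest pair minus the lowest was 5.27 for *Eda2r* (SAT chow 3.56, muscle -1.71), 1.56 for *Trp53inp1* (SAT chow 1.46, muscle -0.10), 1.23 for *Zmat3* (VAT 0.70, muscle -0.53) and 1.16 for *Sesn1* (SAT HFD 0.88, VAT -0.28). It was 1.14 for *Bbc3* (SAT chow 0.45, SAT HFD -0.69), 1.05 for *Ccng1* (SAT HFD 0.17, SAT chow -0.88) and 0.85 for *Mdm2* (SAT HFD 0.43, muscle -0.42). The VAT values rest on libraries whose labels *Tert* does not show. The members on both sides of 0 were not recounted under other scalings. With library totals, *Trp53inp1* in muscle was at 0.06 in place of -0.10.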

How the results depend on the processing

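In muscle over SAT on chow, the number of members called went from 0 to 1 (*Gadd45a*) with DESeq2 size factors, library totals, no count filter, a mean of at least 50 counts, no genotype term and DESeq2's Wald test, and ranged from 0 to 1 when 1 library was left out. In muscle over VAT it was 1 and ranged from 0 to 1 when 1 library was left out. In the KO and WT pairs, 41 of 74 ratios of members and other pathway genes left their own counting interval with library totals. With DESeq2 size factors, with upper quartile scaling and with the length trend removed, 28 did so each time. Library totals gave 0 members called for SAT HFD (main value 1) and 1 for muscle (main value 0, *Phlda3* higher). Intervals beyond 1.5-fold gave 4 members for SAT HFD, 4 for SAT chow and 2 for muscle. The share of all genes called within pairs was not counted with library totals or beyond 1.5-fold, so these counts of members have no background. TMM factors over all genes were run first and were replaced as the main setting after the data were seen. They changed no count of members called and no call of a value given. With them, *Gadd45a* in muscle over VAT was at adjusted p = 0.0393 (edgeR). Of 617 other fitted values of members under the alternatives, 49 changed sign and 0 were called. Over all genes, the count called for genotype was 1, but 41 with no count filter and 19 with DESeq2's Wald test. With these 2 settings it was 289 and 260 for HFD over chow (main value 0), 2116 and 2305 for VAT over SAT (857), 971 and 1058 for muscle over SAT (213), and 1166 and 1258 for muscle over VAT (328). Without a genotype term the last 2 were 339 and 542. With 1 library left out, the counts ranged from 0 to 2, 0 to 308, 93 to 3449, 37 to 1761 and 41 to 1207 in this order. Counts of 0 to 3 limit *Eda2r* in SAT. The labels number no replicates, so no pairing finer than tissue and diet was possible. The pair of KO and WT libraries is itself the block, and without it 0 members and 0 genes were called for genotype.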
